A study of Rattus norvegicus with 24 samples.

Results

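The endoplasmic reticulum (ER) folding and secretory transport genes are the genes for proteins that guide a new secretory protein into the ER, fold it there and carry it between the ER and the Golgi. They were chosen by gene symbol alone: a gene entered when the single symbol of its probe set began like those of the signal recognition particle, the translocon, the ER chaperones and disulfide enzymes, the ER stress transcription factors, the COPI and COPII coats, the ARF proteins, the cargo receptors or the TRAPP tethers. This gave 124 of 14217 genes, each represented by its probe set of highest mean signal, and 119 of them passed the filter on low signal, among 10539 genes tested. The filter asked for a signal above the array median in at least 4 arrays. The members that did not pass were Tmed6, Sec14l3, Pdia2, Creb3l4 and Calr4. The choice by symbol also took in 10 tested genes whose names share only the first letters, such as Srpx, Srpx2 and Srpk1, and these are described apart. Of the 119 members, 103 lay above the array median in all 24 arrays.

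The measurements come from cartilage of the proximal tibia of rats aged 1 week that were not castrated, cut by hand from stained frozen sections into zones, and the small amounts of RNA were amplified before labelling. The series addresses Indian hedgehog signalling in the growth plate after birth. The 24 arrays were 4 of epiphyseal cartilage and 5 each of the resting, the proliferative, the transition (proliferative to hypertrophic) and the hypertrophic zone, from 5 numbered animals, of which animal 3 had no epiphyseal array. Values are MAS5 signals, a brightness per probe set on a linear scale, and fold changes are on the scale of log2(signal + 16). The resting, proliferative and hypertrophic arrays are labelled as male rats, and the epiphyseal and transition arrays are labelled in other words, as untreated rats on standard chow without a sex. If the 2 sets of arrays were handled apart, that cannot be told apart from zone where the transition zone is set against the proliferative or hypertrophic zone, or the resting zone against epiphyseal cartilage. Array number limits the precision, with 15 residual degrees of freedom in the fit. A p-value here is from limma with the animal as a block, adjusted over 19213 probe sets.

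In a secretory cell the signal recognition particle brings a ribosome to the ER membrane, and the Sec61 channel passes the growing chain inside, where the signal peptide is cut off. Chaperones such as Hspa5 (BiP) bind the chain, and the oxidases Ero1a and Ero1b feed the protein disulfide isomerases with oxidizing power. COPII coats carry finished proteins towards the Golgi and COPI coats bring receptors and escaped ER proteins back. When unfolded protein builds up in the ER, the factors Atf6, Xbp1, Atf4 and Ddit3 (CHOP) change the transcription of many of these genes. Growth plate chondrocytes secrete large amounts of collagen and proteoglycan, and collagen export in particular is known to need the cargo receptor Mia3 (TANGO1) and the COPII coat.

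Most differences of these genes between zones were below 2-fold, and the commonest pattern was a modest maximum in the transition zone. Of the 119 members, 69 (58%) had their highest mean in the transition zone, against 20.5% of all genes tested. In the transition zone 26 members rose relative to the proliferative zone and 7 fell, at an adjusted p below 0.05 and any fold. That is 21.8% and 5.88% of the members, where 10.8% and 13% of all genes tested did so. In the hypertrophic zone 37 members (31.1%) fell relative to the transition zone and 4 (3.36%) rose, where the background was 13.1% and 12.9%. The median change of the members was 0.23 on the log2 scale for the transition over the proliferative zone and -0.28 for the hypertrophic over the transition zone, while the medians of all genes tested were -0.03 and -0.01.

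**Figure D1:**
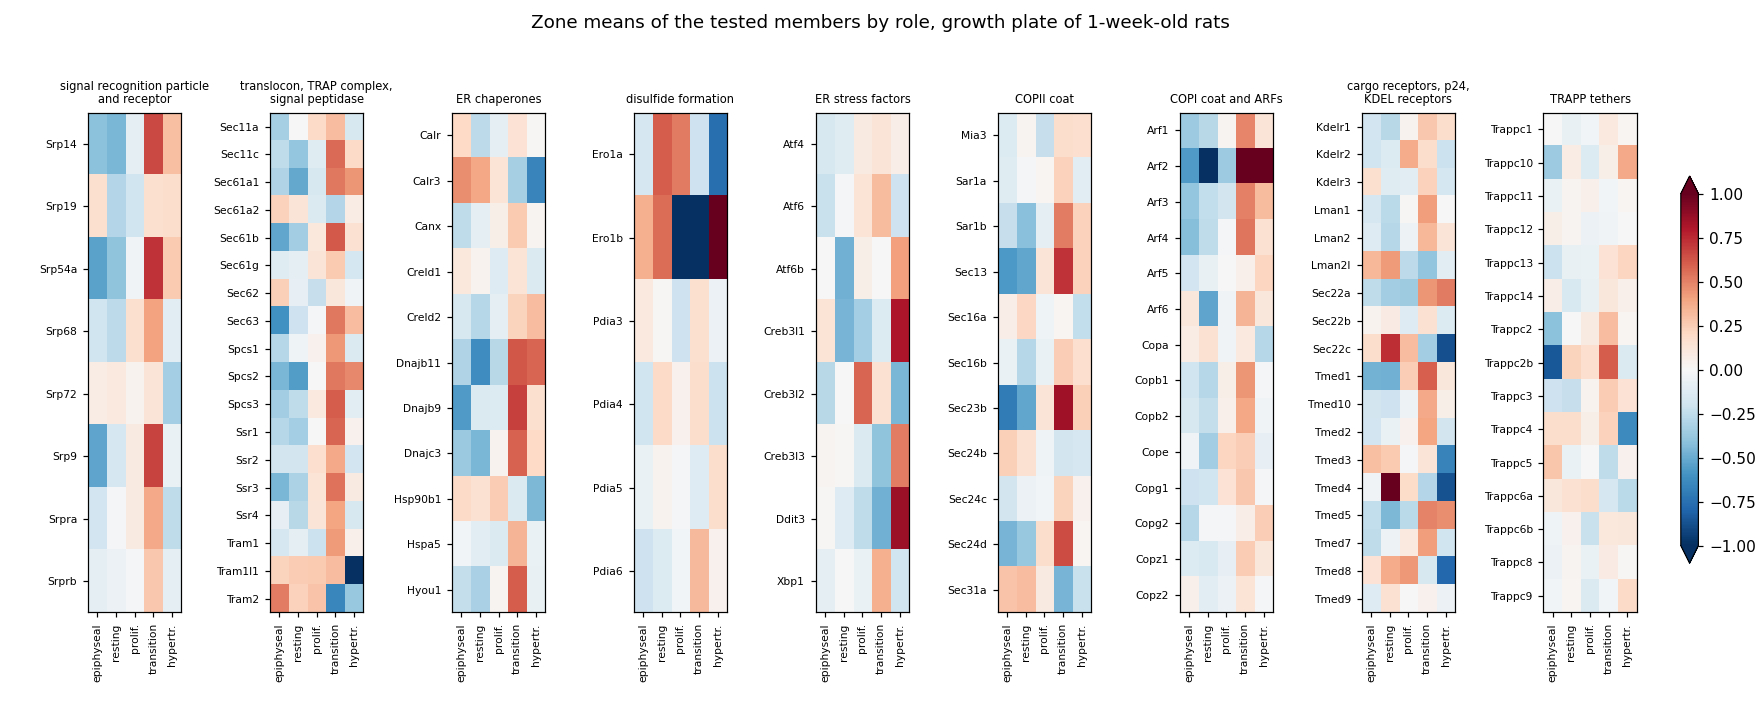
Each cell is the mean of a gene in a zone (4 epiphyseal arrays, 5 of each other zone) minus its mean over the 5 zones, on the scale of log2(signal + 16), with the 109 tested members that have a transport or folding role set out by role. The transition column holds the highest value for 15 of 18 translocon genes and 7 of 15 TRAPP genes. Ero1b and Arf2 have the largest differences between zones, and the colour scale is capped, so that larger differences share its end colours.

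The median over the members, each taken as its difference from the mean of its 5 zone means, was 0.35, 0.09, 0.25, 0.09 and 0.42 in the transition arrays of animals 1 to 5. In the proliferative arrays of the same animals it was 0.13, 0.01, 0.07, -0.14 and -0.06, and in the hypertrophic arrays 0.00, -0.08, 0.22, 0.02 and -0.19. The transition array was above both neighbours in 5 of 5 animals, with the hypertrophic array close behind in animal 3. The medians of all genes tested stayed between -0.06 and 0.08 in every array. Against the mean of the proliferative and hypertrophic zones, a contrast chosen after the data were seen, 33 members (27.7%) were higher in the transition zone and 3 (2.52%) lower, with backgrounds of 8.21% and 8.97%.

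Among genes above the array median in all arrays, where signal is higher, 25 of 103 members (24.3%) rose in the transition over the proliferative zone and 36 (35%) fell in the hypertrophic over the transition zone, against 14.4% and 18.3% of 6428 genes. The counts depended on single arrays and on the fit, while the medians kept their direction. Without the transition array of animal 5, 15 members were higher in the transition than in the proliferative zone (background 8.49%), 20 were lower in the hypertrophic than in the transition zone (background 10.1%), and 12 stood above the mean of both neighbours (background 3.87%). The medians without that array were 0.20 and -0.21. Leaving out animal 2, 4 or 5 gave 15, 17 and 14 higher members in the transition over the proliferative zone (backgrounds 8.08%, 9.32% and 8.36%). Leaving out animal 1, 2 or 5 gave 21, 17 and 15 lower members in the hypertrophic over the transition zone (backgrounds 10%, 8.79% and 8.88%). Against the mean of both neighbours, leaving out animal 1, 2 or 5 gave 20, 16 and 9 higher members (backgrounds 5.6%, 4.66% and 3.53%). Without the animal as a block the counts at the 2 borders were 12 and 18 (backgrounds 7.51% and 8.75%). With every array scaled to the same median, the median change of the members was 0.38 and -0.53 at the 2 borders, and that of all genes tested was 0.12 and -0.25. With quantile normalization the medians of the members were 0.17 and -0.19, and those of all genes tested were 0.03 and -0.07. In bulk tissue, fewer cells of a type and less RNA per cell cannot be told apart.

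The signal recognition particle and its receptor, which bring ribosomes to the ER, had 7 of 8 members highest in the transition zone, and Srp19 highest in the hypertrophic zone. All 8 members tested had a positive log2 change in the transition over the proliferative zone, with a median of 0.32, and 2 of them, Srp54a and Srp14, passed the test (25%, background 10.8%). Srp54a, the subunit that binds the signal peptide, had signals of 4538, 4385, 4784, 3068 and 2858 in the transition arrays of animals 1 to 5, against 2408, 2538, 2919, 1436 and 2284 in the proliferative arrays. The rise was 0.76 ± 0.15 (SE) on the log2 scale with a limma adjusted p of 0.000603, and it was seen in 5 of 5 animals although the lowest transition array lay below the highest proliferative array. In the hypertrophic arrays Srp54a had 2950.0, 2859.7, 4229.5, 1746 and 2642, and it fell by 0.47 ± 0.15 relative to the transition zone (adjusted p = 0.0267). That fall failed the test in 7 of 18 alternatives, among them no animal block (adjusted p = 0.138), the animal as a random block (adjusted p = 0.0602) and quantile normalization (-0.35, adjusted p = 0.107). Srp54 has near-identical copies in mouse, and whether its probe set tells them apart was not tested. Srp14, a subunit of the part that holds back translation, rose by 0.75 ± 0.14 in the transition over the proliferative zone (adjusted p = 0.000494), and its hypertrophic over transition change was -0.35 ± 0.14 (adjusted p = 0.0824). Relative to the transition zone, 5 of the 8 members (62.5%, background 13.1%) fell in the hypertrophic zone: Srp54a, Srp68, Srp9, Srpra and Srp72.

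The Sec61 channel, the TRAP complex (Ssr1 to Ssr4) that sits beside it and the signal peptidase (Sec11 and Spcs genes) had 15 of 18 members highest in the transition zone. Of the 18, 8 rose in the transition over the proliferative zone (Sec61a1, Sec61b, Spcs2, Sec11c, Sec63, Spcs1, Ssr1 and Tram1) and 1 fell (Tram2), which is 44.4% and 5.56%, with backgrounds of 10.8% and 13%. Of these genes 10 fell in the hypertrophic over the transition zone (55.6%, background 13.1%). Sec61b, the small beta subunit of the channel, had 20127, 13822, 13399, 11743 and 15982 in the transition arrays, against 14539.9, 11391, 10449, 7949 and 8644 in the proliferative arrays, each array above that of the same animal (0.51 ± 0.14, adjusted p = 0.00867). Its hypertrophic arrays, at 11267, 10374, 12030.1, 9383 and 10686, were lower than the transition array in 5 of 5 animals (-0.46 ± 0.14, adjusted p = 0.0159). Without the animal block neither change of Sec61b passed (adjusted p = 0.0562 and 0.0834), and the fall failed in 5 of 18 alternatives. Sec61a1, the pore-forming subunit, stayed high in the hypertrophic zone. Its signals were 12914, 14472, 13354, 11722 and 11395 in the hypertrophic arrays, 14688, 13873, 11054, 15025 and 13428 in the transition arrays and 9138, 8406, 6056, 5530.2 and 4732 in the resting arrays. Relative to the resting zone, it rose in the hypertrophic zone by 0.95 ± 0.13 (adjusted p = 2.59e-06), and its hypertrophic over transition change was -0.09 ± 0.13.

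Spcs2, a signal peptidase subunit, also stayed high late. Spcs2 had 1903, 1946, 3065, 1977 and 1854 in the hypertrophic arrays, against 909.7, 1261, 1113, 799.9 and 1067 in the resting arrays, with no overlap between these zones (1.04 ± 0.18, adjusted p = 5.82e-05). The lowest of the group was Tram1l1, a relative of the translocating chain protein Tram1, which lay above the array median in only 6 arrays. Tram1l1 had 4.8, 114, 100.2, 45.3 and 44.9 in the hypertrophic arrays, against 123, 142, 162, 145 and 196 in the transition arrays (-1.36 ± 0.37, adjusted p = 0.00827). The 2 zones did not overlap. With a pseudocount of 64 that change was -0.86, under 2-fold, and without animal 1 it was -1.02 (adjusted p = 0.0542). For Sec63, whose product couples the channel to Hspa5, a second probe set moved the other way between the hypertrophic and the resting zone (-0.56 against 0.51 on the log2 scale), so no direction is given for that comparison. In the transition over the proliferative zone the dimmer Sec63 probe sets gave 0.17 and 0.09 (adjusted p = 0.62 and 0.768), against 0.55.

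**Figure D2:**
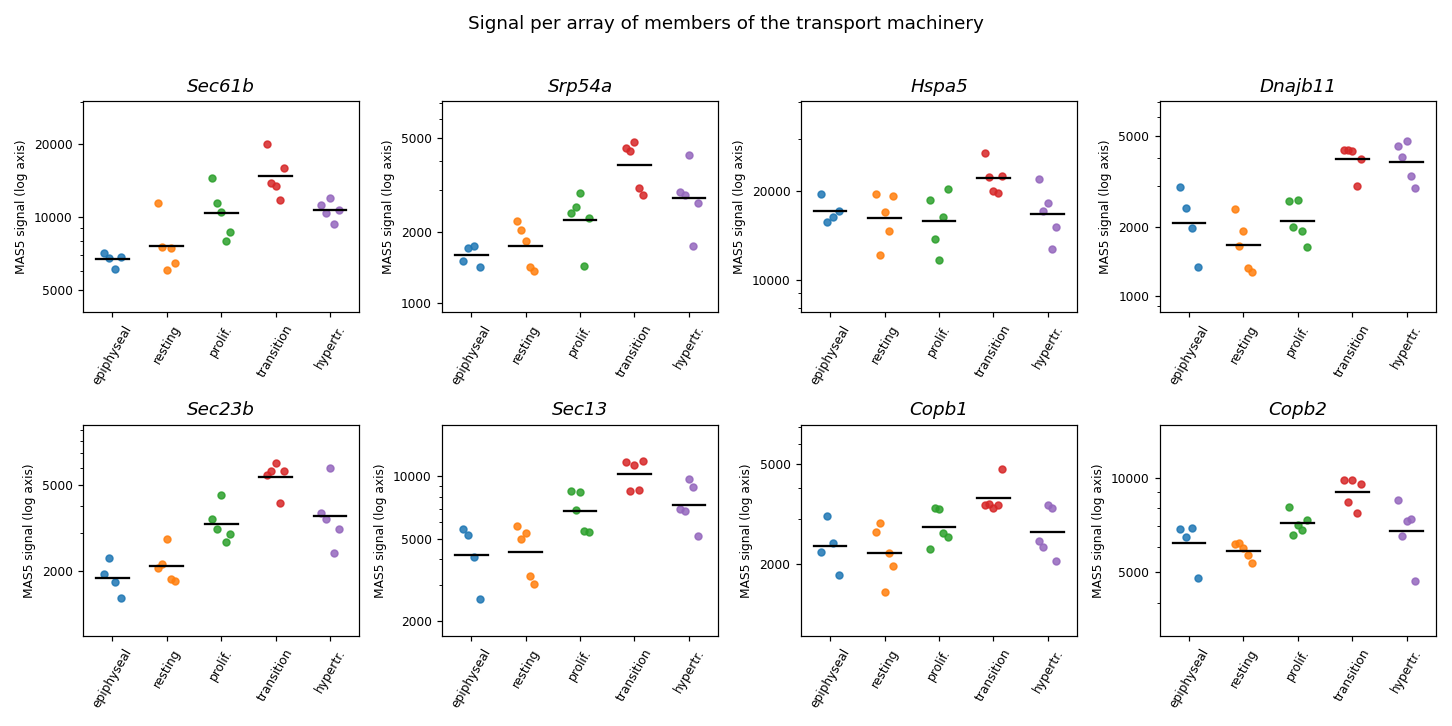
Signal per array on a log axis for 8 genes of targeting, translocation, folding and coats, with the zones in anatomical order, points for arrays and a bar at the geometric mean. In Sec61b, Srp54a, Hspa5, Sec23b, Sec13, Copb1 and Copb2 the transition bar is the highest, and in Dnajb11 the transition and hypertrophic bars lie close together.

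The ER chaperones had 7 of 11 members highest in the transition zone. Of the 11 tested, 5 rose in the transition over the proliferative zone (Dnajb11, Dnajc3, Dnajb9, Hyou1 and Hspa5) and 0 fell, which is 45.5% and 0%, with backgrounds of 10.8% and 13%. In the hypertrophic over the transition zone 3 fell (Dnajb9, Hyou1 and Hspa5; 27.3%, background 13.1%). Hspa5, the main Hsp70 of the ER, had 26996, 22291, 19953, 19703 and 22516 in the transition arrays, against 18666, 13780.1, 11640.5, 16324 and 20347 in the proliferative arrays, a rise of 0.48 ± 0.14 (adjusted p = 0.0151) seen in 5 of 5 animals although the groups overlapped. Its hypertrophic arrays had 22019.9, 17079, 18172, 12736 and 15069, each below the transition array of the same animal (-0.40 ± 0.14, adjusted p = 0.0403). That fall of Hspa5 failed the test in 10 of 18 alternatives, among them without the hypertrophic array of animal 4 (-0.33, adjusted p = 0.112), and without the animal block neither change of Hspa5 passed (adjusted p = 0.0721 and 0.134).

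Dnajb11 (ERdj3), a co-chaperone of Hspa5 that binds unfolded chains, rose the most of the chaperones and did not fall back. Its signals were 2973, 2404, 1979 and 1339 in the epiphyseal arrays, 2382, 1656, 1913, 1320.4 and 1273 in the resting arrays and 2586, 1986, 2610.0, 1923 and 1628 in the proliferative arrays. They were 4345, 4329, 4302, 3021 and 3954 in the transition arrays and 4488, 4048, 4719.8, 3322 and 2945 in the hypertrophic arrays, so that every array of these 2 zones lay above every earlier array other than that of animal 1 in epiphyseal cartilage, which overlapped the lowest hypertrophic array. The hypertrophic over resting change of Dnajb11 was 1.20 ± 0.13 (adjusted p = 5.22e-08) and the transition over proliferative change 0.90 ± 0.13 (adjusted p = 1.53e-05). Dnajc3 (p58IPK), another co-chaperone, rose by 0.56 ± 0.16 in the transition over the proliferative zone (adjusted p = 0.0118), in 5 of 5 animals.

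Other chaperones gave other values. Hsp90b1 (GRP94), the Hsp90 of the ER, was lower in the hypertrophic than in the proliferative zone by 0.70 ± 0.17 (adjusted p = 0.00176), in 5 of 5 animals, and its transition over proliferative change was -0.39 ± 0.17. The lectin chaperones Calr and Canx, which hold glycoproteins, did not pass the test across zones with their brightest probe sets (adjusted p = 0.133 and 0.156). The 3 probe sets of Canx differed: 1 of the dimmer ones passed across zones (adjusted p = 0.000973) and rose in the transition over the proliferative zone by 0.43 (adjusted p = 0.03), and the other did not pass across zones (adjusted p = 0.533). Calr3, a low-signal relative of Calr known from testis, was above the array median in 11 arrays. Calr3 had 129, 74.3, 107, 90.7 and 112 in the hypertrophic arrays, against 314, 239, 145, 225 and 242 in the resting arrays, without overlap (-1.05 ± 0.29, adjusted p = 0.00554).

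Promoters of the members were read from RefSeq for rat build GRCr8, as the 250 bases before the annotated start, because many chaperone genes are known to carry the ER stress response element (ERSE) there. The RefSeq set held 114 promoters under the symbols of the 124 members. A member with several promoters was counted for each, so the number of members covered was not determined. The ERSE, a CCAAT box and, after 9 bases of any kind, the box CCACG, was searched on both strands and was present in 9 of these 114 promoters (7.89%) and in 22 of 33469 promoters of all genes (0.0657%). The 9 were Calr, Calr4, Canx, Creld2, Dnajc3, Ero1b, Hsp90b1, Hspa5 and Xbp1. The shorter motif TGACGTG, the core of the unfolded protein response element (UPRE), was in 10 member promoters (8.77%) and 1.54% of all, and the amino acid response motif TGATGNAA was in 0 member promoters and 3.4% of all. The 250 bases of 4 of these genes are shown 5′ to 3′ in the direction of transcription, because they share a motif and yet differ in where their signal was highest, with the motif letters in capitals.
Hspa5, chr3:38452766-38453015, forward strand: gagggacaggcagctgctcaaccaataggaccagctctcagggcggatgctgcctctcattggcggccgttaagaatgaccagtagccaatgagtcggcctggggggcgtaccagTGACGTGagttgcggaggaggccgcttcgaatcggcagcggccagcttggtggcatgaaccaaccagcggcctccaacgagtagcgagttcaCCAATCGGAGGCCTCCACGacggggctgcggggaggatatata
Dnajc3, chr15:102432417-102432666, forward strand: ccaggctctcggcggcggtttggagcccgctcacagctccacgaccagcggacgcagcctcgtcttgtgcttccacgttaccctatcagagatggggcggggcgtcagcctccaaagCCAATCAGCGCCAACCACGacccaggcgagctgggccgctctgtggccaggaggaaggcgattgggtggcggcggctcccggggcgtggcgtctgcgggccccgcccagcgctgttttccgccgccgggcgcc
Xbp1, chr14:84604373-84604622, forward strand: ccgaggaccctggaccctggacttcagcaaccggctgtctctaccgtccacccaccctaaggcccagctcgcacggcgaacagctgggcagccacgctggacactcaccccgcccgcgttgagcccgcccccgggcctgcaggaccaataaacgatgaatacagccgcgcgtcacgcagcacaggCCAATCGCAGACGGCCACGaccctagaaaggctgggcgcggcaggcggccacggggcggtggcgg
Ero1b, chr17:92941432-92941681, forward strand: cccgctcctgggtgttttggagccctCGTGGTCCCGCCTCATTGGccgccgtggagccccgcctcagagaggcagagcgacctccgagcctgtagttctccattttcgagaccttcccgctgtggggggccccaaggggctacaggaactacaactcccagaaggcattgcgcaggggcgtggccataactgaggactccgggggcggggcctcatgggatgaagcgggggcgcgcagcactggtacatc

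The ERSE began 43 bases before the start in Hspa5, 133 bases in Dnajc3 and 65 bases in Xbp1. In Ero1b the ERSE was on the opposite strand, with its far end 224 bases before the start. The UPRE core of Hspa5, also in capitals, began at 135 bases. Of the 8 tested genes with an ERSE, 3 rose in the transition over the proliferative zone (Hspa5, Dnajc3 and Xbp1). The background was 10.8%, and 21.8% of the members rose. In the transition zone 4 of the 8 had their highest mean, as did 58% of the members and 20.5% of all genes tested. Creld2 and Ero1b were highest in the hypertrophic zone, Hsp90b1 in the proliferative zone and Calr in epiphyseal cartilage. Of the 10 genes with TGACGTG, 4 rose in the transition over the proliferative zone (Arf4, Hspa5, Hyou1 and, by 1 of 2 probe sets, Mia3), with the same background of 10.8%. Of these 10 genes 8 had their highest mean in the transition zone (background 20.5%, members 58%). ERSE-II, which joins ATTGG to the CCACG box over 1 base of any kind, was in a promoter of Hyou1 and in 0.0418% of all. A match describes the letters in this window and is not evidence of binding.

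Ero1b had the largest zone difference of the chaperone and disulfide genes, and it was higher in the hypertrophic than in the transition zone, while the median change of the members in that comparison was -0.28. It encodes an oxidase that passes oxidizing power to protein disulfide isomerase and is best known from pancreas. Ero1b had 1485, 1183, 744, 1161 and 1516 in the hypertrophic arrays of animals 1 to 5, against 34.8, 119, 65.6, 115 and 17.2 in the transition arrays and 153, 52.3, 91.3, 31.9 and 46.6 in the proliferative arrays. In the resting arrays it had 319, 444, 393, 217 and 366, and in epiphyseal arrays 299, 392, 168 and 368. All hypertrophic arrays were above all others, all proliferative and transition arrays were below all others, and only 13 of the 24 arrays were above their median.

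The rise of Ero1b was 3.99 ± 0.37 on the log2 scale for the hypertrophic over the transition zone (adjusted p = 3.83e-08) and 3.87 ± 0.37 over the proliferative zone (adjusted p = 9.69e-09), both in 5 of 5 animals. The proliferative over resting change was -2.11 ± 0.37 (adjusted p = 0.00022), so Ero1b was low in the transition zone, where 69 of the members had their highest mean. The hypertrophic over resting change was 1.76 ± 0.37 (adjusted p = 0.000404). These 4 changes stayed past the threshold in each of the 18 alternatives. The added pseudocount understates changes of low signals, so the folds of Ero1b from the 2 low zones are compressed.

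Ero1a, the widely expressed partner of Ero1b, went the opposite way. It had 686, 329, 659.6, 420.5 and 508 in the hypertrophic arrays, against 1407, 1123, 1039, 1329.9 and 1322 in the proliferative arrays and 708, 1186, 1702, 1695 and 1588 in the resting arrays. The hypertrophic and proliferative arrays did not overlap (-1.27 ± 0.24, adjusted p = 0.000178). The change held for 1 of 2 probe sets: the other, of lower mean signal, gave 0.06 (adjusted p = 0.898) for that comparison, and the mean of both gave -0.61. The isomerases Pdia3, Pdia4, Pdia5 and Pdia6, which Ero1 proteins oxidize, passed the test across zones in 1 case (Pdia6, adjusted p = 0.0212, background 60.6%). None passed between neighbouring zones, where the backgrounds per direction ran from 1.17% to 13.1%.

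**Figure D3:**
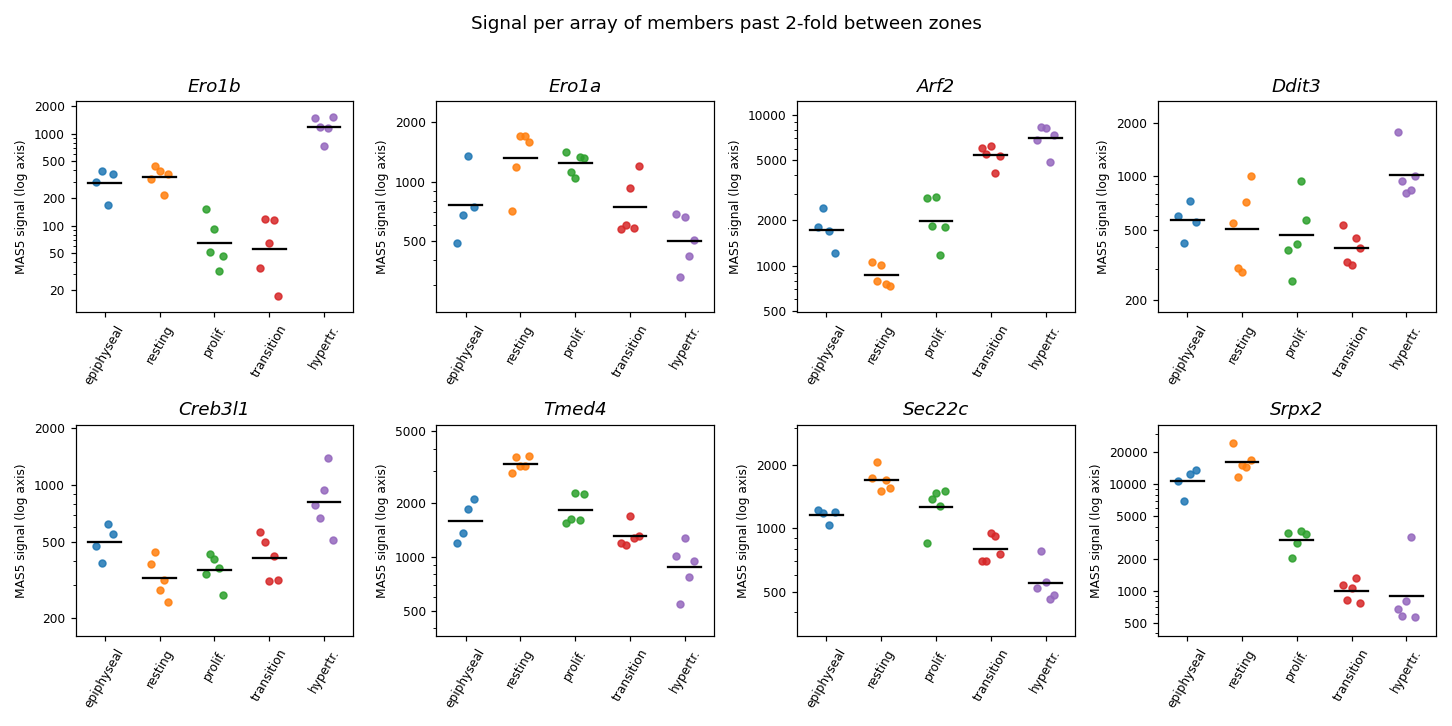
Signal per array on a log axis for 8 members that differed by 2-fold or more between zones, with points for arrays and a bar at the geometric mean of the zone. Ero1b is low in the proliferative and transition zones and high in all 5 hypertrophic arrays, Arf2 climbs from the resting zone onwards, and 1 hypertrophic array of Srpx2 lies apart from the other 4.

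Among the ER stress transcription factors, Ddit3 and Creb3l1 rose in the hypertrophic zone while Xbp1, Creb3l2 and, by 1 of 2 probe sets, Atf6 fell there, relative to the transition zone. Ddit3 (CHOP), a factor induced by prolonged ER stress and by amino acid shortage, had 1784, 948, 802, 832 and 1001 in the hypertrophic arrays, against 532, 327, 315, 448 and 394 in the transition arrays. Every hypertrophic array was above every transition array (1.34 ± 0.25, adjusted p = 0.00034), and the array of animal 1 was far above the other 4. Relative to the proliferative zone Ddit3 rose by 1.11 ± 0.25 (adjusted p = 0.000959), in 4 of 5 animals. Without animal 1 that change was 0.84, and without animal 2 it was 0.93.

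Creb3l1 (OASIS), a membrane-bound factor known to act on secretory and collagen genes in osteoblasts, had 788, 674, 942, 1384 and 516 in the hypertrophic arrays, against 342, 436, 410.0, 366 and 264 in the proliferative arrays, with no overlap (1.15 ± 0.22, adjusted p = 0.000148). The highest value was that of animal 4, whose hypertrophic array also had the highest osteoclast and osteoblast marker levels (their part was not tested), and without that array the change was 0.98 (adjusted p = 0.000852). Its relative Creb3l2 (BBF2H7), known in mouse cartilage as an activator of Sec23a, had 248, 307, 505, 205 and 425 in the hypertrophic arrays, against 496, 547, 738, 768 and 927 in the proliferative arrays. Creb3l2 was lower in 5 of 5 animals (-1.04 ± 0.21, adjusted p = 0.00037).

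Xbp1, which encodes a factor activated by splicing of its mRNA, had 8245, 6860.0, 8846, 8368 and 9844 in the transition arrays, against 7130.4, 5694, 6688, 6252 and 5564 in the proliferative arrays (0.42 ± 0.13, adjusted p = 0.0205), higher in 5 of 5 animals with a small overlap between the zones. Its hypertrophic arrays had 5185, 4513, 7621, 6881 and 4790.1, each below the transition array of the same animal (-0.56 ± 0.13, adjusted p = 0.00271). The rise of Xbp1 did not pass the test without the transition array of animal 5 (0.31, adjusted p = 0.0901) or without the animal block (adjusted p = 0.0869). Atf6, an ER membrane sensor and factor, fell by 0.53 ± 0.16 in the hypertrophic over the transition zone (adjusted p = 0.0164). A second Atf6 probe set gave 0.11 (adjusted p = 0.822), and the mean of both gave -0.21 (adjusted p = 0.431). Atf4, the factor upstream of Ddit3 in the integrated stress response, did not pass the test across zones (adjusted p = 0.405), with a hypertrophic over transition change of -0.06 ± 0.15. The signal of a probe set shows neither the splicing of Xbp1 nor the cleavage or translation by which these factors act.

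The COPII coat, which buds vesicles from the ER, had 8 of 11 members highest in the transition zone. Of the 11, 4 rose in the transition over the proliferative zone (Sec23b, Sec13, Sar1b and Mia3) and 0 fell, which is 36.4% and 0%, with backgrounds of 10.8% and 13%. A second Mia3 probe set gave -0.21 in that comparison (adjusted p = 0.545). From the group 4 fell in the hypertrophic over the transition zone (Sec23b, Sec13, Sec24d and Sar1a; 36.4%, background 13.1%). Sec23b, an inner coat subunit, had 5524, 5813, 6319.5, 4127 and 5785 in the transition arrays, against 3492, 3140.0, 4480.1, 2737 and 2969 in the proliferative arrays and 3708, 3466, 6009, 2426 and 3131 in the hypertrophic arrays. The transition array was the highest of the 3 in 5 of 5 animals, with a rise of 0.72 ± 0.13 (adjusted p = 0.000202) and a fall of 0.61 ± 0.13 in the hypertrophic zone (adjusted p = 0.00117). Sec23b also rose in the proliferative over the resting zone, by 0.65 ± 0.13 (adjusted p = 0.000903).

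Sec13, an outer coat subunit that is also part of the nuclear pore, had 11673, 8546, 11292, 8590.5 and 11836 in the transition arrays, against 8490.5, 6919, 8446, 5469 and 5377 in the proliferative arrays (0.59 ± 0.17, adjusted p = 0.0124). It was higher in the proliferative than in the resting zone too (0.65 ± 0.17, adjusted p = 0.00992). The hypertrophic over transition change of Sec13 was -0.49 ± 0.17 (adjusted p = 0.0364), and -0.31 (adjusted p = 0.169) without the transition array of animal 5. Its partner Sec31a, whose probe set was above the array median in 22 arrays, had a transition over proliferative change of -0.55 ± 0.28, which did not pass.

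In the COPI coat and the ARF proteins, the small GTPases that recruit it, 14 of 14 members had a positive log2 change in the transition over the proliferative zone, with a median of 0.33. The 4 that passed (28.6%, background 10.8%) were Arf2, Arf3, Arf4 and Copz1. A second Copz1 probe set gave -0.13 (adjusted p = 0.722). The coat subunits Copb1 and Copb2 were close to the median of the group. Copb1 had 3424, 3471, 3339, 3439 and 4785 in the transition arrays, against 2282, 3337, 3315, 2644 and 2561 in the proliferative arrays (0.38 ± 0.18) and 2452, 2333, 3431, 3339 and 2042 in the hypertrophic arrays. The transition array of animal 5 was well above the other 4, which lay within a narrow band, and Copb1 passed the test across zones (adjusted p = 0.013) but not at either border of the transition zone.

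Copb2 had 9876, 8355, 9846, 7737 and 9578 in the transition arrays, against 8093, 6565, 7086, 6835 and 7352 in the proliferative arrays and 8478, 6548, 7314, 7403 and 4692 in the hypertrophic arrays. Each transition array was above both others of its animal. The fall of Copb2 in the hypertrophic zone was 0.42 ± 0.13 (adjusted p = 0.0197), and 0.33 (adjusted p = 0.0756) without the transition array of animal 5; the transition over proliferative change was 0.33 ± 0.13 and did not pass. Cope, another coat subunit, rose in the proliferative over the resting zone by 0.56 ± 0.12 (adjusted p = 0.00189), in 5 of 5 animals.

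Arf2 had the largest rise along the growth plate of the ARF genes tested. Its signals were 1815, 2413, 1696 and 1224 in the epiphyseal arrays, 1065, 796, 1019, 759.5 and 740.2 in the resting arrays and 2799, 1852, 2862, 1186 and 1811 in the proliferative arrays. They reached 6009, 5497, 6268, 4140.5 and 5361 in the transition arrays and 6815, 8274, 8229.7, 4909 and 7432 in the hypertrophic arrays. Every resting array lay below every array of the other zones, and the transition and hypertrophic arrays lay above all earlier ones. Arf2 rose by 1.19 ± 0.16 in the proliferative over the resting zone (adjusted p = 7.28e-06), by 1.43 ± 0.16 in the transition over the proliferative zone (adjusted p = 4.29e-07) and by 2.99 ± 0.16 in the hypertrophic over the resting zone (adjusted p = 2.02e-13), each in 5 of 5 animals. A second probe set gave 2.31 for the hypertrophic over the resting zone (adjusted p = 9.71e-07). It gave 1.20 for the transition over the proliferative zone (adjusted p = 0.00519) and 0.79 for the proliferative over the resting zone (adjusted p = 0.0825). With the brightest probe sets the hypertrophic over the resting zone gave 0.56 ± 0.18 for Arf3 and did not pass for Arf1, Arf4, Arf5 and Arf6 (0.40, 0.41, 0.29 and 0.64). A second Arf1 probe set did pass (0.91, adjusted p = 0.00642), and a second Arf3 probe set gave 0.11 (adjusted p = 0.887). Whether the Arf2 changes exceeded those of the other ARF genes was not tested.

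Among the cargo receptors, members changed in both directions in the transition over the proliferative zone. The group holds the p24 proteins (Tmed genes), the lectins of the Lman family, the KDEL receptors that retrieve ER residents and the Sec22 SNAREs. Of 18 tested, 15 passed the test across zones (background 60.6%), 7 fell in the hypertrophic over the transition zone (background 13.1%) and 0 rose (background 12.9%). Across the resting, proliferative and hypertrophic zones alone, 9 passed (50%, background 52%). In the transition over the proliferative zone 2 rose (Tmed10 and Sec22a; 11.1%, background 10.8%) and 3 fell (Tmed4, Sec22c and Tmed8; 16.7%, background 13%), so that both shares were near those of all genes. These last 3 fell again in the hypertrophic over the transition zone. The first fall of Tmed4 failed the test in 7 of 18 alternatives, among them arrays scaled to one median (-0.33, adjusted p = 0.21) and no animal block (adjusted p = 0.102), and the second fall of Sec22c failed in 5 of 18, with adjusted p up to 0.123 without animal 4.

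Tmed4 had 1013, 544, 1279, 767 and 943 in the hypertrophic arrays, against 2919.9, 3604, 3211, 3185 and 3625 in the resting arrays. The groups were far apart (-1.90 ± 0.16, adjusted p = 7.38e-10), and Tmed4 also rose in the resting zone over epiphyseal cartilage (0.98 ± 0.17, adjusted p = 0.000998). A second Tmed4 probe set gave -0.60 for the hypertrophic over the resting zone (adjusted p = 0.0196). Sec22c had 518, 785, 554, 461 and 482 in the hypertrophic arrays, against 1749.7, 2085, 1511, 1699 and 1563 in the resting arrays, without overlap (-1.61 ± 0.16, adjusted p = 1.82e-08). Its other 2 probe sets gave -0.72 and -1.63 (adjusted p = 0.0285 and 6.8e-05). Tmed8 had 189.6, 435, 368, 321 and 287 in the hypertrophic arrays, against 657, 895, 795, 568 and 678 in the resting arrays, again without overlap (-1.16 ± 0.17, adjusted p = 6.45e-06).

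Other p24 genes differed from these: Tmed10, Tmed2, Tmed7 and Tmed3 had positive transition over proliferative changes of 0.43, 0.35, 0.32 and 0.15, of which that of Tmed10 passed. Tmed3 fell in the hypertrophic over the transition zone by 0.80 ± 0.17 (adjusted p = 0.000971). Kdelr1 rose in the hypertrophic over the resting zone by 0.45 ± 0.11 (adjusted p = 0.00133), in 5 of 5 animals.

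The TRAPP genes, which encode a tether for vesicles arriving at the Golgi, changed little. Of 15 tested, 1, Trappc4, passed the test across zones, where 60.6% of all genes tested did and 78 of the 119 members (65.5%). Trappc4 had 326, 324, 789, 456 and 408 in the hypertrophic arrays, against 691, 646, 1018, 715 and 1040.0 in the transition arrays, lower in 5 of 5 animals (-0.86 ± 0.16, adjusted p = 0.000431). Trappc13, which had the next smallest p, differed by 0.29 ± 0.12 between the hypertrophic and the resting zone, and its adjusted p across zones was 0.0629.

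**Figure D4:**
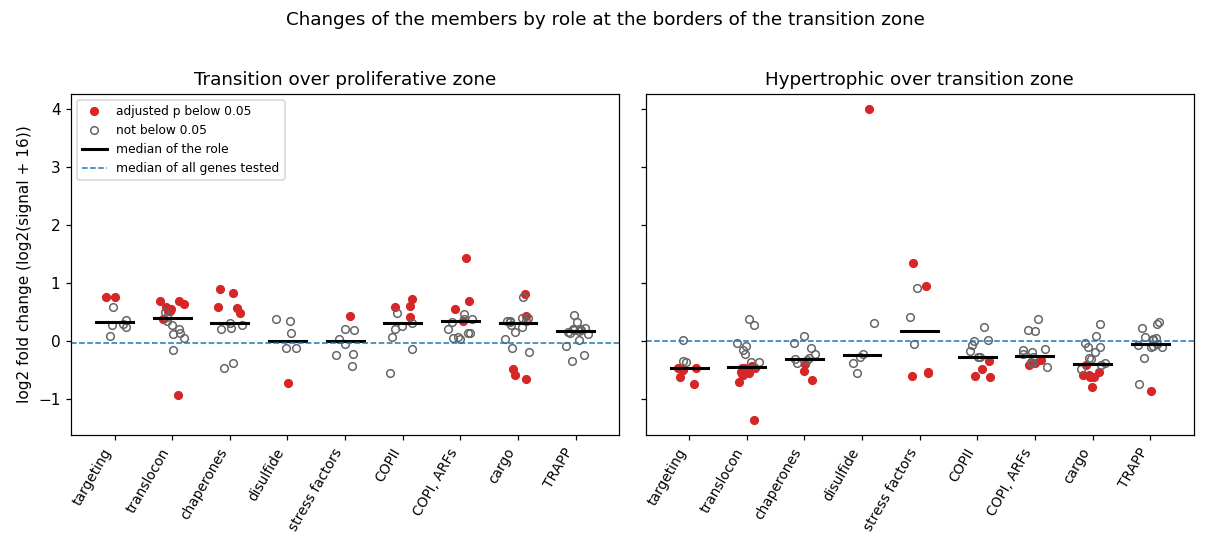
Log2 fold changes of the tested members by role, for the transition over the proliferative zone on the left and the hypertrophic over the transition zone on the right, with filled points at an adjusted p below 0.05, black bars at the median of the role and a dashed line at the median of all genes tested. The medians of the targeting, translocon, chaperone, COPII, COPI and cargo groups lie between 0.30 and 0.40 on the left and between -0.47 and -0.25 on the right, and Ero1b is the point near 4.

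The genes that the rule took in by their first letters alone gave other counts, with 0 of 10 highest in the transition zone and a median transition over proliferative change of -0.20. Srpx2, a secreted sushi-repeat protein, had 677, 586, 798, 3232 and 566 in the hypertrophic arrays, against 24268, 11735, 15247, 14704 and 16942 in the resting arrays. Every hypertrophic array was below every resting array, that of animal 4 by less than the others, and the change was -4.14 ± 0.26 (adjusted p = 4.49e-12). Srpx2 fell at both earlier steps, by 2.41 ± 0.26 in the proliferative over the resting zone and by 1.58 ± 0.26 in the transition over the proliferative zone (adjusted p = 3.03e-07 and 8.25e-05). Its relative Srpx fell in the hypertrophic over the transition zone by 1.58 ± 0.24 (adjusted p = 4.18e-05), in 5 of 5 animals. Sec14l2, a lipid-binding protein, fell in the proliferative over the resting zone by 1.05 ± 0.35 (adjusted p = 0.0493) and was higher in the hypertrophic than in the transition zone by 1.02 ± 0.35 (adjusted p = 0.0396), and most alternatives ended both calls. Without these 10 genes the median change of the members was 0.25 in the transition over the proliferative zone and -0.29 in the hypertrophic over the transition zone.

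Counted at 2-fold or more with an adjusted p below 0.05, few members were called in any comparison, so the shape of the group rests on changes below 2-fold. In the transition over the proliferative zone, Arf2 was the 1 member called higher and Srpx2 the 1 called lower, where 3.39% and 5.09% of all genes tested were called. In the hypertrophic over the transition zone 3 members were called higher (Ero1b, Ddit3 and Sec14l2; background 7.44%) and 2 lower (Srpx and Tram1l1; background 2.43%). In the proliferative over the resting zone Arf2 was called higher (background 2.15%) and Srpx2, Ero1b and Sec14l2 lower (background 3.98%). At any fold, 11 members rose there (9.24%, background 8.22%) and 5 fell (4.2%, background 7.45%).

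Resting zone and epiphyseal cartilage differed in few of these genes, with a median change of 0.01. No member was called higher at 2-fold in the resting zone (background 0.626%) and Arf2 was called lower (-1.07 ± 0.17, adjusted p = 0.000473; background 1.05%). A second Arf2 probe set gave -0.45 (adjusted p = 0.596), and the call was lost in 4 of 18 alternatives. At any fold 1 member rose, Tmed4 (background 1.17%), and 1 fell, Arf2 (background 1.76%).

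The resting, proliferative and hypertrophic arrays share the wording of their labels, and the comparisons among them gave medians from -0.01 to 0.11. An F test across these zones alone was passed by 47 of the 119 members (39.5%), against 52% of all genes tested. For the proliferative over the resting zone the median was 0.10, and 81 of the 119 members (68.1%) had a positive change, where the median of all genes tested was 0.02 and 51.9% were positive. For the hypertrophic over the proliferative zone the median of the members was -0.01, and 4 members were called higher (Ero1b, Arf2, Creb3l1 and Ddit3; background 10.3%) and 8 lower (background 8.98%). The 8 were Srpx2, Tram1l1, Srpx, Ero1a, Tmed8, Sec22c, Tmed4 and Creb3l2. At any fold 13 rose (10.9%, background 19.3%) and 17 fell (14.3%, background 22.5%). For the hypertrophic over the resting zone the median was 0.11 and 60.5% of the changes were positive, against 50% of all genes, with 5 called higher (Arf2, Ero1b, Creb3l1, Dnajb11 and Spcs2; background 10.1%) and 8 lower (Srpx2, Tmed4, Srpx, Sec22c, Ero1a, Tram1l1, Tmed8 and Calr3; background 10.2%). At any fold 26 rose there (21.8%, background 21.5%) and 16 fell (13.4%, background 22.5%).

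Genes of the same pathways that the symbol rule did not take in gave similar medians as a whole but not in every sublist. The list held 91 genes for ER quality control, glycosylation, other folding enzymes, stress sensors and targets, and traffic between ER and Golgi, and 84 were tested; the list was drawn up with earlier results of these data known. In the transition over the proliferative zone 22 rose (background 10.8%) and 3 fell (background 13%) at any fold, with a median change of 0.25. In the hypertrophic over the transition zone 2 rose (background 12.9%) and 27 fell (background 13.1%), with a median of -0.29. For the 9 tested targets of the integrated stress response the medians were -0.37 and 0.19, and for the 3 tested sensors of unfolded protein and their processing enzymes -0.38 and 0.19. Manf, an ER-resident neurotrophic factor homologue released under ER stress, averaged 5923 ± 1180 (SD, n = 5) in the transition zone and 2880 ± 560 (SD, n = 5) in the proliferative zone (1.04 ± 0.15, limma adjusted p = 1.53e-05). Sel1l, part of the machinery that extracts misfolded proteins from the ER, rose by 1.09 ± 0.20 there (adjusted p = 0.000244) and by 1.76 ± 0.20 in the hypertrophic over the resting zone (adjusted p = 1.02e-07). Edem1, a lectin that hands glycoproteins to degradation, fell by 1.01 ± 0.19 in the hypertrophic over the transition zone (adjusted p = 0.000315).

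Other genes of the list had larger changes in the hypertrophic zone. Preb (Sec12), the exchange factor that activates Sar1, rose by 1.54 ± 0.20 in the hypertrophic over the proliferative zone (adjusted p = 1.14e-06). Mogs, the glucosidase that makes the first cut on N-glycans, fell by 1.42 ± 0.16 in the same comparison (adjusted p = 9.93e-08). Use1, a SNARE for return traffic to the ER, fell by 1.06 ± 0.14 (adjusted p = 2.58e-06). In the hypertrophic over the resting zone, Erp29, an ER folding protein, fell by 1.36 ± 0.13 (adjusted p = 9.7e-09), and Vldlr, a lipoprotein receptor, fell by 2.10 ± 0.24 (adjusted p = 1.21e-07). Fkbp14, a prolyl isomerase of collagen, fell by 1.04 ± 0.17 in the hypertrophic over the transition zone (adjusted p = 6.55e-05).

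Markers of other cells moved with the hypertrophic comparisons and with those against the resting zone. The mean log2 signal of the 7 tested osteoclast and macrophage markers of 12 ran from 10.09 to 13.07 in hypertrophic arrays, against 7.72 to 8.37 in transition arrays, and all 7 rose. The 4 tested osteoblast markers of 6 had a median of 13.05 over hypertrophic arrays, against 10.62 over transition arrays, the 4 tested erythroid markers of 7 had 11.21 against 8.84, and all of these rose too. The 4 tested leukocyte markers of 7 ran from 8.18 to 10.15 in hypertrophic arrays, against 6.24 to 7.51 in transition arrays, and all 4 rose. The 9 tested skeletal muscle markers of 10 ran from 8.20 to 10.20 in proliferative arrays, against 8.51 to 13.06 in resting arrays, with 6 of the 9 lower at 2-fold, and 7 rose in the hypertrophic over the transition zone. The part of these cells in the changes of Ero1b, Ddit3, Creb3l1 and the members that fell in the hypertrophic zone, and in those of Ero1b, Arf2, Srpx2 and Sec14l2 relative to the resting zone, was not tested. In the transition over the proliferative zone all 5 hypertrophic chondrocyte markers rose and all 4 dividing cell markers fell. Col10a1, the collagen of hypertrophic cartilage, rose there by 4.08 ± 0.46 (adjusted p = 5.45e-07). The proliferation gene Mki67 was lower by 2.71 ± 0.24 (adjusted p = 1.97e-08). Other neighbouring zones were separated less clearly. In the hypertrophic over the transition zone 3 of the 4 dividing cell markers rose (median 1.22). Of the 5 hypertrophic markers 1 rose there (median 0.32). In the resting zone over epiphyseal cartilage 3 of these 5 fell (median -1.80). In the proliferative over the resting zone 4 of them rose, and 1 of the 4 dividing cell markers. Chondrocyte markers lay between 14.51 and 15.89 in all arrays. The 3' over 5' signal of the actin control probe sets, which grows as RNA is degraded, was 4.22 to 4.68 (log2) in transition arrays, 4.09 to 4.83 in proliferative arrays and 3.88 to 4.67 in hypertrophic arrays. It was 3.84 to 4.43 in resting arrays and 3.48 to 4.94 in epiphyseal arrays. The RNA had been amplified before labelling, and the part of that step in these values was not tested.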

How the data were processed

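RNA of 24 microdissected cartilage samples was hybridised to 1 Affymetrix array each. The authors deposited an intensity per probe set, made with MAS5 per the submitters' processing notes, of a version not given in the sources used here. In the values each deposited array had been scaled to a trimmed mean of 500.1 to 500.2 after dropping 2% of the probe sets at either end, and this scaling was kept. Array medians ran from 135.3 to 244.6, and no depth of sequencing applies.

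Signals were used as log2(signal + 16). Of 31099 probe sets, 57 controls among them, 19213 were above the array median in at least 4 arrays and were tested with limma 3.58.1 in R 4.3.3, with zone and animal as fixed terms and a trend in the prior variance. P-values were adjusted by Benjamini-Hochberg over these probe sets. Calls needed 2-fold or more together with an adjusted p under 0.05. The count at any fold and the contrast of the transition zone with both neighbours were chosen after the data were seen. Backgrounds are over the 10539 genes tested, each by its brightest probe set.

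Animal numbers come from the labels. The deviations from zone means of arrays of the same animal correlated with a median r of 0.176 over 46 pairs (-0.142 to 0.360), against -0.046 for 184 pairs of different animals. No 2 arrays shared more than 50 identical values.

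The members, the gene lists and the tests were chosen with earlier results of these data known. Named genes were those called in a comparison, the 2 of smallest adjusted p across zones in each role, the genes given with the group, the main stress factors and up to 4 other pathway genes per comparison; further genes are named only as members of a count or as contrasts, chosen after their values were seen. The fit was tested on simulated data with 200 of 19213 probe sets changed in the transition zone. For the transition over the proliferative zone, 2 passed at a log2 change of 0.5, 101 at 1 and 181 at 2, with at most 13 others passing. Passing there meant an adjusted p under 0.05 at any fold. In the data a larger share passed (10.8% of all genes tested higher and 13% lower), so these rates need not hold there. Alternatives were pseudocount, scaling, filter, block, probe set choice, array weights and leaving out animals or arrays. Promoters are RefSeq GRCr8. Genes were taken from the 13956 tested probe sets with a single symbol; 323 others carried several symbols and 4934 carried none. Figures were drawn with Python 3.11.15 and matplotlib 3.10.9.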

Additional observations from a re-analysis of the deposited data

Results flagged for a closer look

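In these results 1 array stood apart from the others of its zone, by a gap that is large for the range of the zone. Of 220 zones of genes and medians examined, 12 met this, and chance alone gives about 1 in 20. Srpx2 had a signal of 3231.7 in the hypertrophic array of animal 4, against 565.9 to 797.8 in the others. Ddit3 was at 1784.3 in the hypertrophic array of animal 1, against 802.2 to 1000.7. Spcs2 was at 3065.1 in the hypertrophic array of animal 3, against 1853.6 to 1977.1. Atf6 was at 1538.9 in the hypertrophic array of animal 2, against 1132.6 to 1206, and at 1020.3 in the resting array of animal 3, against 1478.6 to 1654.5.

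In the transition zone, Sec14l2 was at 9.5 in animal 2, against 78.6 to 128.3 in the others. Cope was at 5361.6 in animal 2, against 7753.5 to 8202.2. Dnajb11 was at 3021.2 in animal 4, against 3953.9 to 4344.9, and Srp14 was at 5147.3 in animal 4, against 7074.9 to 7798. Copb1 was at 4784.6 in animal 5, against 3339.1 to 3470.7. The median of the targeting genes was 0.47 on the log2 scale in the hypertrophic array of animal 3, against -0.24 to -0.04, and that of the cargo genes was 0.22 in the proliferative array of animal 1, against -0.02 to 0.04. The cause was not tested.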

How the results depend on the processing

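The number of members differing across zones stayed between 59 and 87, where 104 to 124 members were tested depending on the setting. With leaving out each animal in turn it was 59 to 71. Called members in the hypertrophic over the proliferative zone numbered 9 to 13, in the hypertrophic over the resting zone 11 to 16 and in the transition over the proliferative zone 2 to 3. In the hypertrophic over the transition zone the 5 called members became 3 with a pseudocount of 64 and 3 with the filter at the 75th percentile. In the resting zone over epiphyseal cartilage the 1 called member became 2 with arrays scaled to one median, with quantile normalization, with the animal as a random replicate block and with array weights, 0 with the mean of all probe sets of a gene, and 0 to 3 with an animal left out. In the proliferative over the resting zone the 4 became 2 with the mean of all probe sets. The 26 members higher at any fold in the transition over the proliferative zone became 16 with quantile normalization (10.3% of all genes) and 12 with no replicate block (7.51%). They became 14 to 29 with an animal or array left out (8.08% to 11.7%) and 15 without the transition array of animal 5 (8.49%). The 37 lower in the hypertrophic over the transition zone became 62 with arrays scaled to one median (24.8% of all genes) and 18 with no replicate block (8.75%). They became 15 to 41 with an animal or array left out (8.79% to 14.5%) and 20 without the transition array of animal 5 (10.1%). The cause was not tested. Against both neighbours, the 33 higher members became 59 with arrays scaled to one median (16.1% of all genes), 17 with quantile normalization (5.92%), 11 with no replicate block (4.05%) and 9 without animal 5 (3.53%). Of 63 calls of named genes, 30 held in every alternative run and none turned direction. The calls lost most often were those of Sec14l2 (14 of 17 alternatives in the proliferative over the resting zone and 11 of 17 in the hypertrophic over the transition zone), Cope (12 of 18) and Hspa5 (10 of 18) in the hypertrophic over the transition zone. Signals below the array median, as of Ero1b in the proliferative and transition zones and Tram1l1, limit the precision of their folds.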
